A study of Mus musculus with 12 samples.

Results

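The 10 genes described here make, break down or sense prostaglandins, and were chosen by name: Pla2g4a, Ptgs1, Ptgs2, Ptges, Ptges2, Ptges3, Ptgis, Hpgd, Ptger2 and Ptger4. Each name matched 1 row of a count table with 55421 Ensembl genes. Of the 10 genes, 8 passed the filter on low counts and were tested, while Hpgd and Ptger2 did not pass it. The table came from MOC2, a mouse squamous cell carcinoma line used as a model of oral cancer, grown in vitro. Cells titled MOC2-25 were labelled EV-proficient, and cells titled MOC2-27 were labelled EV-deficient. Extracellular vesicles (EVs) are membrane particles shed by cells, and the EV-deficient line cannot be told apart from the EV label, since each label is carried by 1 line. The gene altered to block vesicle release is not given in the labels. Controls carried DMSO as their treatment, and the treated cells received 600 nM paclitaxel, a drug that stabilises microtubules, for 48 h as an inducer of senescence. Each of the 4 groups held 3 libraries of polyadenylated RNA, 12 in all. All groups were grown in the same medium, which contained serum, hydrocortisone, cholera toxin, transferrin, insulin, tri-iodothyronine and EGF. Hydrocortisone is a glucocorticoid, a class of steroid known to lower Ptgs2 expression, and cholera toxin is known to raise cAMP, the second messenger of the EP2 and EP4 receptors.

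Prostaglandins are short-range lipid signals made from arachidonic acid. Cytosolic phospholipase A2 (Pla2g4a) frees arachidonic acid from membranes, and the cyclooxygenases (Ptgs1 and Ptgs2, known as COX-1 and COX-2) turn it into prostaglandin H2. Terminal synthases then make prostaglandin E2 (Ptges, Ptges2, Ptges3) or prostacyclin (Ptgis), Hpgd oxidises prostaglandin E2 to an inactive form, and the receptors EP2 (Ptger2) and EP4 (Ptger4) signal through Gs proteins and cAMP. Ptgs2 is an inducible gene known for its high expression in squamous carcinomas, and prostaglandin E2 is a known lipid component of what senescent cells secrete. The question put to these genes was how their transcripts differed with paclitaxel and with the EV label.

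Library totals lay between 23263472 counts (an EV-proficient paclitaxel library) and 62955757 counts (an EV-deficient DMSO library). Levels are given as CPM, counts divided by library size with sizes scaled by the trimmed mean of M values, and levels of different genes are compared only as CPM per kilobase of exons. Nothing in the labels says that the 3 libraries of a group came from separate cultures, so p-values measure only the spread between these libraries. The squamous label was checked against 10 epithelial markers: their summed level, mostly Krt8, Krt18 and Cdh1, was 5437 to 6424 CPM in the DMSO libraries and 3273 to 4076 CPM in the paclitaxel libraries, while Krt5 and Trp63 were at or near 0. Of the 8 epithelial markers tested, paclitaxel called 6 lower and 1 higher in EV-proficient cells and 7 lower and 1 higher in EV-deficient cells. Over all tested genes, 27.1% and 30.5% were called lower and 31.1% and 32.4% higher. The part of the lower markers in the results below was not tested. One row that the authors added to the table, dngfr, crossed the EV labels. It stood at 5.73, 9.07 and 12.2 CPM in EV-proficient DMSO and at 10.7, 9.63 and 12.4 CPM in EV-deficient paclitaxel. It was lower in EV-deficient DMSO (1.89, 2.00 and 2.54 CPM) and in EV-proficient paclitaxel (2.47, 3.50 and 3.76 CPM). The labels do not say what this row marks, and whether the EV labels of 2 groups were exchanged was not tested. Libraries are named here as labelled, so every difference by EV label and every interaction rests on the labels as deposited. For the tested members, the paclitaxel effect is therefore also given as its mean over both EV labels and against the DMSO libraries of the other EV label. These 3 comparisons were added after the data were seen.

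The number of called genes was high throughout. With edgeR's quasi-likelihood test and a Benjamini-Hochberg adjusted p under 0.05, paclitaxel against DMSO called 7 of the 8 tested prostaglandin genes in EV-proficient cells (4 higher, 3 lower), where 58.2% of all 18108 tested genes were called (31.1% higher, 27.1% lower). In EV-deficient cells it called 8 of 8 (2 higher, 6 lower), against 62.9% of all genes (32.4% higher, 30.5% lower). Ptgis is among the higher genes in both counts, and it passed the filter on low counts only through paclitaxel libraries. EV-deficient against EV-proficient called 3 of 8 under DMSO, all 3 higher, against 23% of all genes in either direction and 12.4% higher. Under paclitaxel it called 4 of 8, all 4 lower, against 37.8% in either direction and 21.8% lower. The interaction, the difference between the paclitaxel effects in EV-deficient and EV-proficient cells, called 4 of 8, all 4 negative, against 40.7% in either direction and 23.8% negative. The mean paclitaxel effect called 8 of 8, against 68.4% of all genes. Against the DMSO libraries of the other EV label, paclitaxel called 7 of 8 in EV-proficient cells (56.9% of all genes) and 8 of 8 in EV-deficient cells (61.4%). Calls of paclitaxel effects among the prostaglandin genes were thus made in a background where most genes were called. The median log2 fold change of the 8 genes was 0.07 with paclitaxel in EV-proficient cells and -0.59 in EV-deficient cells, beside 0.05 and 0.07 over all tested genes.

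The 250 bases before the RefSeq start are printed for Ptgs1, Ptgs2, Ptges and Ptger4, because the comparisons below turn on them. Among tested members with a mean of at least 1 CPM, these 4 had the widest range of group means (log2 CPM). RefSeq promoter windows on GRCm38.p6 matched 9 of the 10 members, all but Ptgis. Coordinates are chr2:36230176-36230425 (plus strand) for Ptgs1, chr1:150099781-150100030 (plus strand) for Ptgs2, chr2:30903298-30903547 (minus strand) for Ptges and chr15:5244188-5244437 (minus strand) for Ptger4. The Ptges window lies within the GENCODE span of the gene (30889471 to 30929863), which extends further upstream, and only the RefSeq start was searched. Sequences run 5′ to 3′ on the gene's strand, and capitals mark matches to any of the motifs named after them.
Ptgs1: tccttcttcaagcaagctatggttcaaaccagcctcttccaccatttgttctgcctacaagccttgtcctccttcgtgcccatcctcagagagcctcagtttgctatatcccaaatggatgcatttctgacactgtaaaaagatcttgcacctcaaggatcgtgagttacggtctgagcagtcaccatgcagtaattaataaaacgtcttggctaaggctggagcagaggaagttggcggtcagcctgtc
Ptgs2: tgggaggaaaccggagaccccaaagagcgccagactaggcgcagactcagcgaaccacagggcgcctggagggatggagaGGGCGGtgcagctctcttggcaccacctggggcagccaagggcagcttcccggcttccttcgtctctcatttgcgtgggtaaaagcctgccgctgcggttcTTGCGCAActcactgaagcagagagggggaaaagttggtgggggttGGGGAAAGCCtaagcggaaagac
Ptges: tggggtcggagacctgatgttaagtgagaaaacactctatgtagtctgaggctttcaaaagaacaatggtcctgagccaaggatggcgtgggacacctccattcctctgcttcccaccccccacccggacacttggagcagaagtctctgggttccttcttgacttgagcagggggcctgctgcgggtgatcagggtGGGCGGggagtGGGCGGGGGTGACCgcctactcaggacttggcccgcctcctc
Ptger4: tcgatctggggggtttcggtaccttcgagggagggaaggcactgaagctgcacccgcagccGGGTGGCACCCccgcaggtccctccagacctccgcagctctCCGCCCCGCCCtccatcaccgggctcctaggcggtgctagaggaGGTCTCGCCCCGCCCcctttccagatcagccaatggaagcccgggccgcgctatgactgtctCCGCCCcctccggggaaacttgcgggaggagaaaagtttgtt
The motifs searched, on both strands, were a CRE core (TGACG), an E-box (CACGTG), a C/EBP palindrome (TTGCGCAA), an AP-1 form (TGANTCA), a GC box (GGGCGG), an NF-kB form (GGG, any 5 bases, then CC) and a TATA box (TATAAA). They were searched over 300-base windows, the 250 bases before the start and the 50 bases from it. Ptgs2 held 1 C/EBP palindrome from base -69 to -62, a match found in 0.183% of all 32851 windows. It also held a GC box (-170 to -165, motif in 35.7% of windows) and an NF-kB form (-23 to -14, motif in 50.8%). After the start it held a CRE core on the other strand (14 to 18, motif in 20.8%), which overlaps an E-box (17 to 22, motif in 7.15%). The 250 bases before Ptgs1 held no match to any of the 7 motifs, and an NF-kB form lay at 28 to 37 after its start. Ptges held 2 GC boxes (-53 to -48 and -42 to -37) and an NF-kB form (-38 to -29) that overlaps the second box. Ptger4 held 4 GC boxes and 3 NF-kB forms, all before the start. None of these 4 windows held an AP-1 form (7.81% of windows) or a TATA box (13.6%). A match describes letters in a window and is not evidence of binding.

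**Figure D1:**
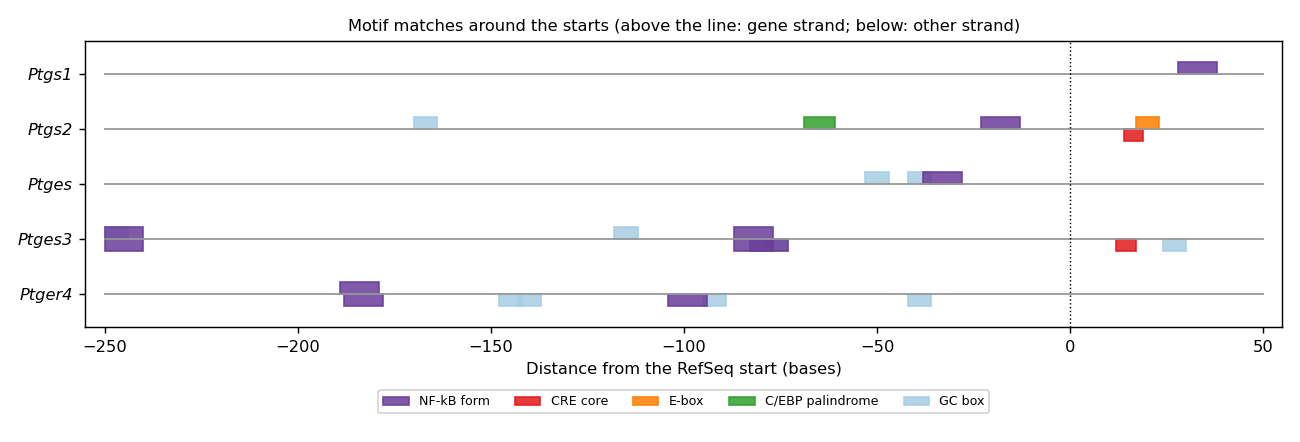
Positions of motif matches around the RefSeq starts of 5 prostaglandin genes. The horizontal axis is the distance from the start in bases, boxes above a line lie on the gene's strand and boxes below it on the other strand. The C/EBP palindrome appears only in the Ptgs2 row among the 5 rows, and the Ptgs1 row is empty before the start.

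Pla2g4a (ENSMUSG00000056220, GRCm38 chromosome 1, 149829618 to 149961290, minus strand), the phospholipase that supplies arachidonic acid, rose with paclitaxel in EV-proficient cells and fell in EV-deficient cells. In replicate order its level was 79.0, 84.6 and 74.4 CPM in EV-proficient DMSO, 116, 108 and 105 in EV-deficient DMSO, 92.6, 91.6 and 97.4 in EV-proficient paclitaxel, and 73.6, 66.7 and 71.8 in EV-deficient paclitaxel. EV-deficient DMSO was highest and EV-proficient paclitaxel next, with no overlap between them or with the lower groups. The 2 lowest groups, EV-proficient DMSO and EV-deficient paclitaxel, did not overlap either (74.4 CPM against 73.6 CPM at their nearest). The log2 fold change with paclitaxel was 0.24 ± 0.07 (SE, n = 3 against 3, edgeR adjusted p = 0.0035) in EV-proficient cells and -0.64 ± 0.07 (edgeR adjusted p = 2.6e-08) in EV-deficient cells. The interaction was -0.88 ± 0.09 (edgeR adjusted p = 1.5e-07). EV-deficient cells were higher under DMSO by 0.47 ± 0.07 (edgeR adjusted p = 1.4e-05) and lower under paclitaxel, at -0.41 ± 0.07 (edgeR adjusted p = 5.1e-05). The rise in EV-proficient cells depended on which DMSO libraries it was set against. Compared with EV-deficient DMSO, EV-proficient paclitaxel stood at -0.23 ± 0.07 (edgeR adjusted p = 0.0053), and EV-deficient paclitaxel stood at -0.17 ± 0.07 against EV-proficient DMSO (edgeR adjusted p = 0.035), a call lost without EV-proficient DMSO replicate 1 (-0.18) or 2 (-0.13). The mean effect of -0.20 ± 0.05 (edgeR adjusted p = 0.00079) was not called under upper-quartile scaling, at -0.07 (edgeR adjusted p = 0.14).

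Ptgs2 (ENSMUSG00000032487, chromosome 1, 150100031 to 150108227, plus strand), the inducible cyclooxygenase, was one of the most abundant transcripts of the cells and fell with paclitaxel under both EV labels. Its level was 1033, 1028 and 907 CPM in EV-proficient DMSO, 1686, 1505 and 1444 in EV-deficient DMSO, 647, 575 and 669.6 in EV-proficient paclitaxel, and 439.7, 438 and 528 in EV-deficient paclitaxel. The 4 groups ran from EV-deficient DMSO through EV-proficient DMSO and EV-proficient paclitaxel to EV-deficient paclitaxel, and no neighbours in that order overlapped. Per kilobase of exons it ranked 196th, 128th, 261st and 333rd of 18093 genes in EV-proficient DMSO, EV-deficient DMSO, EV-proficient paclitaxel and EV-deficient paclitaxel. With paclitaxel it fell 1.57-fold in EV-proficient cells (log2 fold change -0.65 ± 0.08, n = 3 against 3, edgeR adjusted p = 4.7e-07). In EV-deficient cells it fell 3.30-fold (-1.72 ± 0.08, edgeR adjusted p = 2e-13). The interaction of -1.07 ± 0.11 (edgeR adjusted p = 1.4e-07) means that the fall was larger in the libraries labelled EV-deficient. EV-deficient cells were 1.56-fold higher under DMSO (0.64 ± 0.08, edgeR adjusted p = 3e-06) and 1.34-fold lower under paclitaxel (-0.43 ± 0.08, edgeR adjusted p = 0.00024). Against the DMSO libraries of the other EV label, the 2 paclitaxel effects were nearer to each other. They were -1.29 ± 0.08 for EV-proficient and -1.08 ± 0.08 for EV-deficient paclitaxel. The separate effects were negative under either pairing of labels, so the direction of the fall did not depend on it. The mean effect, which is the same for either pairing, was -1.19 ± 0.06 (edgeR adjusted p = 1e-13).

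Ptgs1 (ENSMUSG00000047250, chromosome 2, 36230426 to 36252272, plus strand), the cyclooxygenase usually described as constitutive, was scarce and moved differently from Ptgs2. Its level was 0.804, 0.622 and 0.615 CPM in EV-proficient DMSO, 3.52, 3.94 and 3.66 in EV-deficient DMSO, 7.06, 6.22 and 6.35 in EV-proficient paclitaxel, and 2.42, 2.49 and 2.69 in EV-deficient paclitaxel. No group overlapped another: EV-proficient paclitaxel was highest, then EV-deficient DMSO, EV-deficient paclitaxel and EV-proficient DMSO. In EV-proficient cells it rose 9.56-fold with paclitaxel (3.26 ± 0.19, n = 3 against 3, edgeR adjusted p = 9.7e-12). In EV-deficient cells it fell by 0.55 ± 0.17 on the log2 scale (edgeR adjusted p = 0.0069), a call lost under upper-quartile scaling, at -0.36 (edgeR adjusted p = 0.061). EV-deficient cells were 5.41-fold higher under DMSO (2.44 ± 0.20, edgeR adjusted p = 4.7e-09) and 2.58-fold lower under paclitaxel (-1.37 ± 0.17, edgeR adjusted p = 1.5e-06). The interaction with the labels as deposited was -3.80 ± 0.26 (edgeR adjusted p = 1.3e-10). The sign in EV-deficient cells followed the pairing of labels. EV-deficient paclitaxel was 3.71-fold higher than EV-proficient DMSO (1.89 ± 0.20, edgeR adjusted p = 3.8e-08), and EV-proficient paclitaxel was 1.77-fold higher than EV-deficient DMSO (0.82 ± 0.16, edgeR adjusted p = 0.00019). The mean paclitaxel effect on Ptgs1 was 1.36 ± 0.13 (edgeR adjusted p = 4.8e-09).

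**Figure D2:**
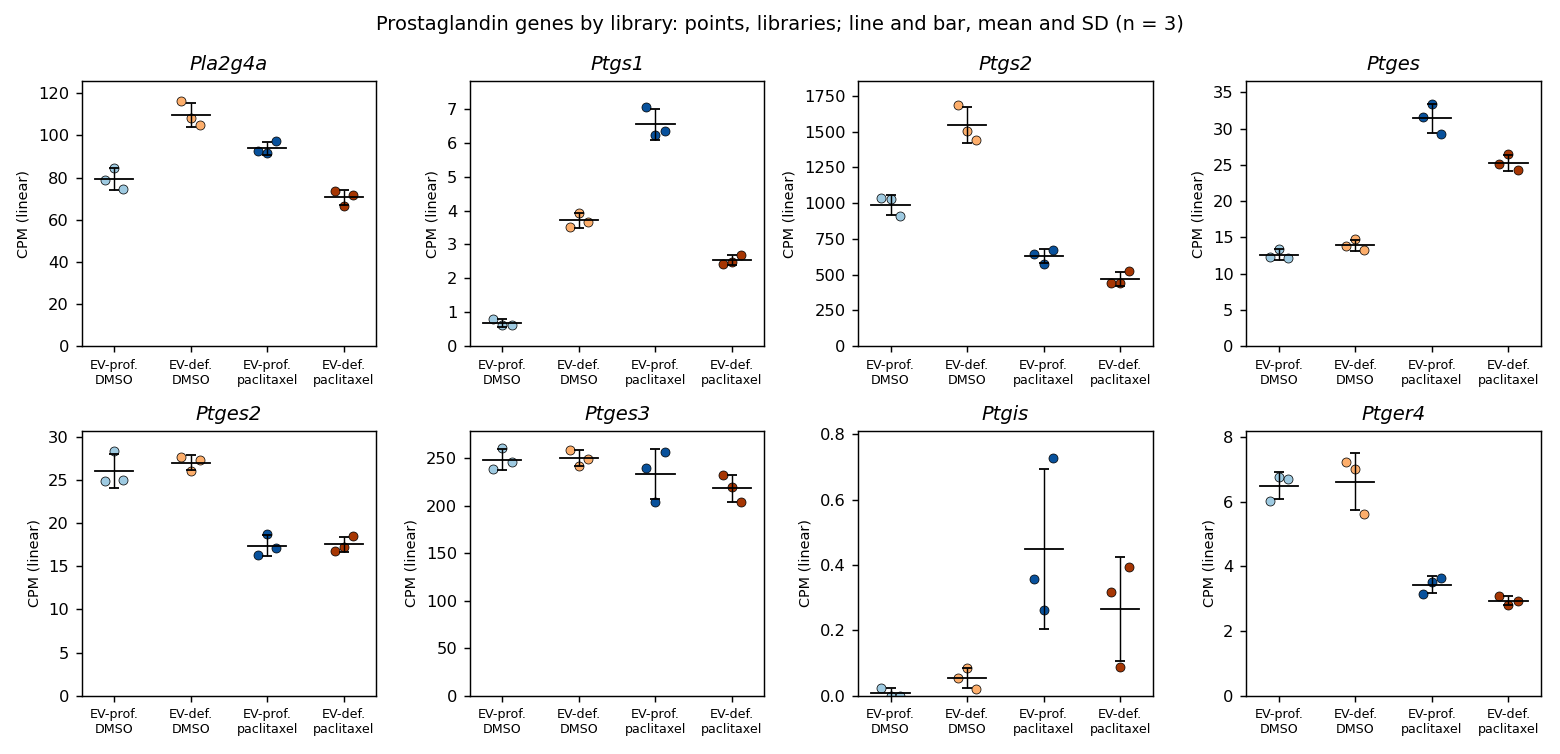
Level in CPM (linear vertical axes starting at 0) of the 8 tested prostaglandin genes in each library. Points are libraries, horizontal lines are means and bars are 1 SD over 3 libraries per group. Ptgs2 is lowest in both paclitaxel groups, Ptges is highest in them, and Ptgs1 is lowest in EV-proficient DMSO.

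The balance of both cyclooxygenases differed between all 4 groups. Per kilobase of exons, Ptgs2 stood above Ptgs1 by 1090-fold, 1400.4-fold and 1251-fold in the EV-proficient DMSO libraries and by 407-fold, 324-fold and 334-fold in EV-deficient DMSO. The ratio was 77.7, 78.4 and 89.4 in EV-proficient paclitaxel and 154, 149 and 166.5 in EV-deficient paclitaxel. Ptgs2 was thus the main cyclooxygenase transcript in all 12 libraries, and Ptgs1 made up at most 1.27% of the pair. The 4 groups did not overlap in this ratio.

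Ptgs1 is also expressed by platelets and myeloid cells, so markers of other cell types were measured in the same libraries. The summed level of 7 leukocyte and macrophage markers was 7.50 to 8.52 CPM in EV-proficient DMSO, 20.9 to 21.6 in EV-deficient DMSO, 39.9 to 44.7 in EV-proficient paclitaxel and 26.5 to 47.1 in EV-deficient paclitaxel. Only 3 of the 7 passed the filter, and nearly all of the sum was Cd68, a lysosomal protein, and Csf1r, the receptor of the macrophage growth factor CSF1. Csf1r had means of 0.944, 12.4, 11.6 and 5.34 CPM in EV-proficient DMSO, EV-deficient DMSO, EV-proficient paclitaxel and EV-deficient paclitaxel. With paclitaxel Csf1r rose by 3.63 ± 0.20 in EV-proficient cells (edgeR adjusted p = 2.8e-12) and fell by 1.22 ± 0.16 in EV-deficient cells (edgeR adjusted p = 8.2e-07), the directions of Ptgs1. The list as a whole did not share them. Of the 3 tested markers, paclitaxel called 3 higher in EV-proficient cells (31.1% of all tested genes were called higher). In EV-deficient cells it called 1 higher and 1 lower, Csf1r (32.4% and 30.5% of all tested genes), and the summed level was higher than under DMSO. The pan-leukocyte marker Ptprc had group means between 0.396 and 1.01 CPM, Itgam had group means of at most 0.278 CPM, and Adgre1, Lyz2 and Cd3e were at or near 0 in every group. Summed fibroblast markers were 1.68 to 3.60 CPM under DMSO and 5.58 to 8.99 CPM under paclitaxel, and summed endothelial markers lay between 1.88 and 4.52 CPM. Their part in the Ptgs1 result was not tested, and in bulk RNA fewer cells of a type and less RNA per cell cannot be told apart.

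Ptges (ENSMUSG00000050737, chromosome 2, 30889471 to 30929863, minus strand) encodes the inducible microsomal prostaglandin E synthase that usually works with COX-2. It rose with paclitaxel under both EV labels. Its level was 12.3, 13.5 and 12.1 CPM in EV-proficient DMSO, 13.9, 14.7 and 13.2 in EV-deficient DMSO, 31.5, 33.3 and 29.3 in EV-proficient paclitaxel, and 25.0, 26.5 and 24.3 in EV-deficient paclitaxel. All 6 paclitaxel libraries lay above all 6 DMSO libraries, the 2 paclitaxel groups did not overlap, and the 2 DMSO groups did. The rise was 2.49-fold in EV-proficient cells (1.32 ± 0.09, n = 3 against 3, edgeR adjusted p = 4.9e-11) and 1.82-fold in EV-deficient cells (0.86 ± 0.09, edgeR adjusted p = 1.5e-08). It was smaller in EV-deficient cells by an interaction of -0.46 ± 0.12 (edgeR adjusted p = 0.0046). Under DMSO the EV label made a difference of 0.14 that was not called (95% interval -0.04 to 0.32, edgeR adjusted p = 0.29), and under paclitaxel EV-deficient cells were lower, at -0.32 ± 0.08 (edgeR adjusted p = 0.0049). Against the DMSO libraries of the other EV label the effects were 1.18 ± 0.09 and 1.00 ± 0.09 in EV-proficient and EV-deficient paclitaxel, and the mean effect was 1.09 ± 0.06. Ptges and Ptgs2 therefore changed in opposite directions with paclitaxel under both labels and under each pairing of labels.

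Ptges2 (ENSMUSG00000026820, chromosome 2, 32395896 to 32405772, plus strand), a membrane-associated prostaglandin E synthase, fell with paclitaxel under both EV labels. It stood at 24.8, 28.3 and 25.0 CPM in EV-proficient DMSO, 27.7, 26.0 and 27.3 in EV-deficient DMSO, 16.3, 18.7 and 17.1 in EV-proficient paclitaxel, and 16.8, 17.2 and 18.5 in EV-deficient paclitaxel. The paclitaxel libraries all lay below the DMSO libraries, and the EV labels overlapped within each treatment. The log2 fold changes were -0.58 ± 0.09 in EV-proficient cells (edgeR adjusted p = 5.8e-06) and -0.62 ± 0.09 in EV-deficient cells (edgeR adjusted p = 1.5e-06). Their difference of -0.04 had a 95% interval from -0.29 to 0.21 (edgeR adjusted p = 0.84). The mean effect was -0.60 ± 0.06, and against the DMSO libraries of the other EV label the effects were -0.63 ± 0.09 and -0.57 ± 0.09 in EV-proficient and EV-deficient paclitaxel.

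Ptges3 (ENSMUSG00000071072, chromosome 10, 128058954 to 128077272, plus strand) encodes p23, a cytosolic prostaglandin E synthase that is also a co-chaperone of Hsp90. Its level was 239, 260.2 and 246 CPM in EV-proficient DMSO, 259, 242 and 249 in EV-deficient DMSO, 239.6, 204 and 256 in EV-proficient paclitaxel, and 232, 219 and 204 in EV-deficient paclitaxel. In EV-deficient cells the paclitaxel libraries lay below the DMSO libraries, and in EV-proficient cells the groups overlapped. The log2 fold change was -0.09 in EV-proficient cells (95% interval -0.24 to 0.06, edgeR adjusted p = 0.29) and -0.20 ± 0.07 in EV-deficient cells (edgeR adjusted p = 0.024), and their difference was not called (-0.10, 95% interval -0.32 to 0.11, edgeR adjusted p = 0.47). The call in EV-deficient cells was lost under upper-quartile scaling (-0.01), under a filter of 1 CPM in 3 libraries (-0.13), without EV-deficient DMSO replicate 1 (-0.18) and without EV-deficient paclitaxel replicate 3 (-0.15). In EV-proficient cells a call appeared without EV-proficient paclitaxel replicate 3 (-0.20, edgeR adjusted p = 0.027). The mean effect of -0.14 ± 0.05 (edgeR adjusted p = 0.018) was not called under upper-quartile scaling (-0.02) or a filter of 1 CPM in 3 libraries (-0.11). With DMSO libraries of the other EV label as controls, the values were -0.10 ± 0.07 in EV-proficient paclitaxel, not called, and -0.19 ± 0.07 in EV-deficient paclitaxel (edgeR adjusted p = 0.032), a call lost under the same 2 settings (-0.03 and -0.13) and without EV-proficient DMSO replicate 2 (-0.16). The processed pseudogene Ptges3-ps held 614 to 1607 counts per library, so reads split between it and Ptges3 make these values uncertain.

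Per kilobase of exons, Ptges3 was the most abundant of the 3 prostaglandin E synthases and Ptges gained share with paclitaxel. Ptges3 made up between 92.5% and 93.2% of their summed level in the DMSO libraries and between 88.3% and 91.5% in the paclitaxel libraries. Ptges made up 2.59% to 3.17% in the DMSO libraries and 5.58% to 8.13% in the paclitaxel libraries. The ranges of DMSO and paclitaxel libraries did not overlap for either gene. In EV-proficient DMSO the means were 3.21 CPM per kilobase for Ptges, 5.15 for Ptges2 and 112 for Ptges3, beside 216 for Ptgs2 and 12.4 for Pla2g4a.

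**Figure D3:**
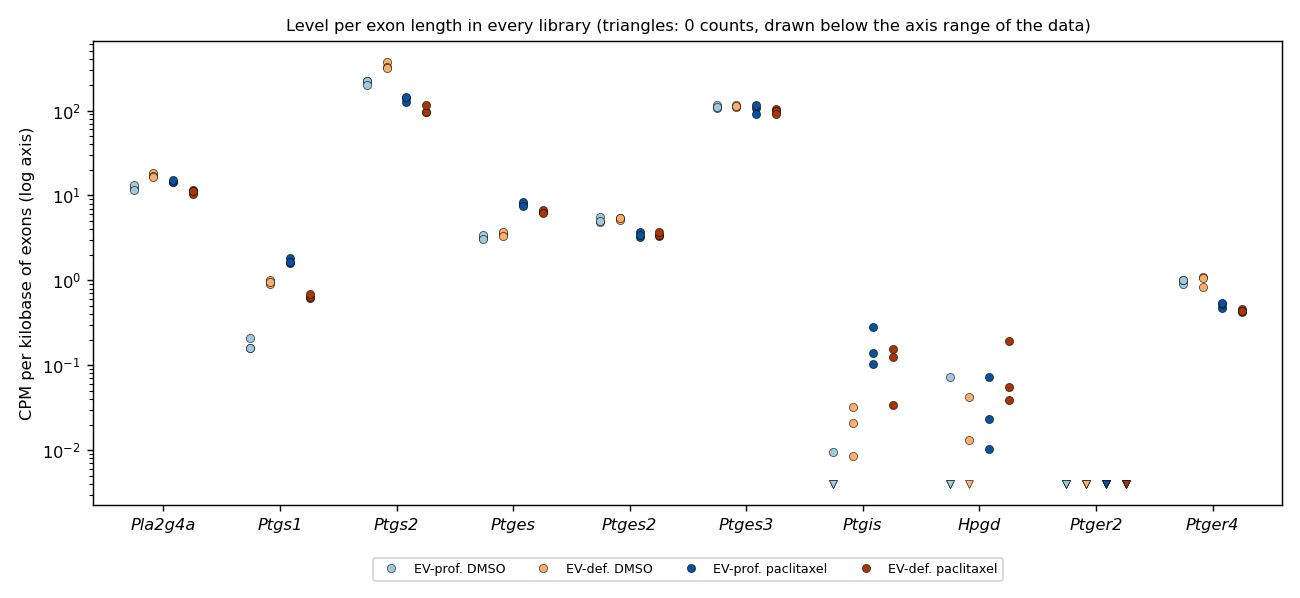
Level in CPM per kilobase of exons (log vertical axis) of all 10 prostaglandin genes, 1 point per library, coloured by group. Triangles stand for libraries with 0 counts and are placed below the data. Ptgs2 and Ptges3 lie highest, Ptgs1 and Ptger4 lie near 1 or below, and Ptger2 shows triangles only.

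Ptgis (ENSMUSG00000017969, chromosome 2, 167191805 to 167240604, minus strand), the prostacyclin synthase, was near the detection limit and was higher with paclitaxel. It had 1, 0 and 0 counts in the EV-proficient DMSO libraries, 3, 4 and 1 in EV-deficient DMSO, 18, 15 and 18 in EV-proficient paclitaxel, and 17, 4 and 24 in EV-deficient paclitaxel. Scaled to library size, the ratio of summed counts was 45.1 in EV-proficient cells (51 counts against 1, exact 95% conditional binomial interval 7.74 to 1817) and 5.23 in EV-deficient cells (45 counts against 8, interval 2.44 to 12.9). These intervals cover counting error only. Both differences were called by edgeR's quasi-likelihood test (adjusted p = 0.00026 and 0.017). No DMSO library had more than 4 counts, so Ptgis passed the filter on low counts only through paclitaxel libraries. Its calls as higher with paclitaxel, here and below, thus rest on the same values that admitted it to the test. The call in EV-deficient cells was lost without EV-deficient DMSO replicate 1, without EV-deficient DMSO replicate 3 and without EV-deficient paclitaxel replicate 3 (edgeR adjusted p = 0.065, 0.093 and 0.083). Under paclitaxel the EV-deficient to EV-proficient ratio was 0.725 (interval 0.475 to 1.10), and edgeR's quasi-likelihood test did not call it (adjusted p = 0.46). The ratios to the DMSO libraries of the other EV label were 7.21 in EV-proficient paclitaxel (interval 3.40 to 17.6) and 32.7 in EV-deficient paclitaxel (interval 5.58 to 1321), both called by edgeR's quasi-likelihood test (adjusted p = 0.0034 and 0.0011), as was the mean effect (adjusted p = 4.3e-05). At its highest, Ptgis reached a mean of 0.449 CPM.

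Hpgd (ENSMUSG00000031613, chromosome 8, 56294585 to 56321043, plus strand), which inactivates prostaglandin E2, was barely detected. It had 5, 0 and 0 counts in EV-proficient DMSO, 4, 0 and 1 in EV-deficient DMSO, 2, 1 and 3 in EV-proficient paclitaxel, and 5, 3 and 20 in EV-deficient paclitaxel. That is 44 counts among 559867086, of which 20 came from 1 library. Hpgd did not pass the filter on low counts, so its differences were not tested.

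Among the receptors, the EP4 gene Ptger4 was expressed and fell with paclitaxel, and the EP2 gene Ptger2 was not detected. Ptger4 (ENSMUSG00000039942, chromosome 15, 5206661 to 5244187, minus strand) stood at 6.04, 6.77 and 6.70 CPM in EV-proficient DMSO, 7.23, 7.03 and 5.61 in EV-deficient DMSO, 3.14, 3.53 and 3.64 in EV-proficient paclitaxel, and 3.09, 2.81 and 2.92 in EV-deficient paclitaxel. The 6 paclitaxel libraries lay below the 6 DMSO libraries, and the 2 DMSO groups overlapped. It fell 1.90-fold in EV-proficient cells (-0.92 ± 0.15, n = 3 against 3, edgeR adjusted p = 2.2e-05) and 2.25-fold in EV-deficient cells (-1.17 ± 0.15, edgeR adjusted p = 6.2e-07). The interaction of -0.25 was not called (95% interval -0.69 to 0.20, edgeR adjusted p = 0.39). Under paclitaxel the EV labels did not overlap, but their difference of -0.22 was not called (95% interval -0.54 to 0.10, edgeR adjusted p = 0.29). With the DMSO libraries of the other EV label as controls the effects were -0.95 ± 0.15 and -1.14 ± 0.15, and the mean effect was -1.05 ± 0.11. Exons of Ptger4 overlap those of Ttc33, on the opposite strand, by 82 bases, and whether strand was used in counting is not given in the sources used here. Ttc33 rose with paclitaxel, by 0.59 ± 0.12 in EV-proficient cells (edgeR adjusted p = 0.00028) and 0.31 ± 0.12 in EV-deficient cells (edgeR adjusted p = 0.026). The second call was lost with no low-count filter (0.27), without any 1 of the EV-deficient DMSO libraries (0.24 to 0.33) and without EV-deficient paclitaxel replicate 1 (0.26).

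Ptger2 (ENSMUSG00000037759, chromosome 14, 44988195 to 45003820, plus strand) had 0 counts in all 12 libraries. Over their 559867086 counts, 0 allows a level of up to 0.00536 CPM (3 counts), for counting error only. Of the 7 other prostanoid receptor genes listed, 4 passed the filter and none had a mean of 1 CPM or more. In EV-proficient cells 1 of the 4 was called lower with paclitaxel, Ptger3, the EP3 receptor (named after its values were seen), which had 18, 8 and 5 counts in the DMSO libraries and 0, 5 and 0 in the paclitaxel libraries (edgeR adjusted p = 0.018). That call was lost under a filter of 1 CPM in 3 libraries, which Ptger3 failed, in a fit to those groups alone, and without EV-proficient DMSO replicate 1 or EV-proficient paclitaxel replicate 1. In EV-deficient cells 0 of the 4 were called with paclitaxel by edgeR's quasi-likelihood test, 0 by DESeq2 and 0 by limma-voom, and 1 had an unadjusted p under 0.05, Ptger1 (1.29 ± 0.61). In that comparison 1 was called higher under upper-quartile scaling, 1 higher in a fit to those groups alone, and 1 lower without EV-deficient paclitaxel replicate 3. Ptger4 was thus the only one of these 9 receptor genes with a mean of 1 CPM or more over the 12 libraries.

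**Figure D4:**
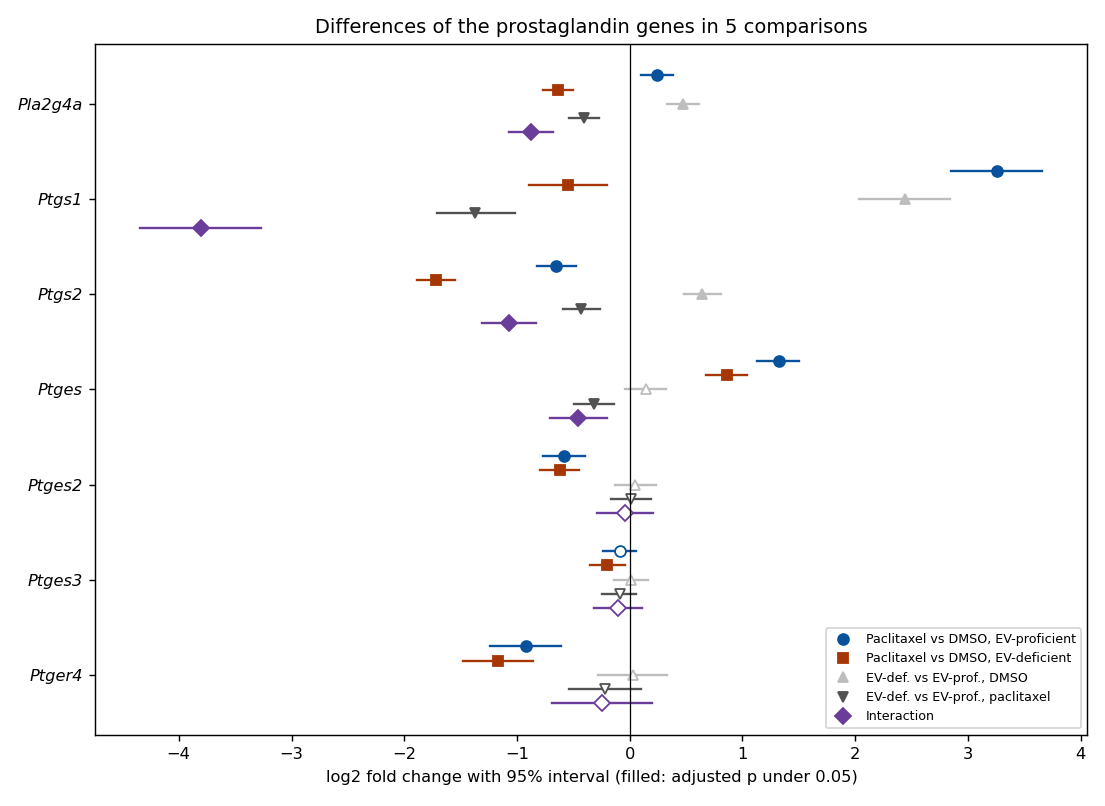
Log2 fold change with its 95% interval for 7 of the 8 tested prostaglandin genes in the 5 planned comparisons. Filled symbols have an adjusted p under 0.05, and Ptgis is left out because its fitted fold changes rest on few counts. Interactions are negative and filled for Pla2g4a, Ptgs1, Ptgs2 and Ptges, and open for Ptges2, Ptges3 and Ptger4.

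The members can be ordered by whether their interaction was called. Ptges2 and Ptger4 fell under both labels with intervals of the interaction that include 0. Ptges rose and Ptgs2 fell under both labels, with a called interaction in each. Ptgs1 and Pla2g4a changed sign between the labels. Under DMSO the 3 genes higher in EV-deficient cells were Ptgs1, Ptgs2 and Pla2g4a, and under paclitaxel the 4 lower ones were these 3 and Ptges.

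Ptgs2 and Pla2g4a are neighbours on chromosome 1, on opposite strands and 138.7 kb apart, with 3 annotated genes and no protein-coding gene between them. Their log2 fold changes with the EV label stood side by side at 0.64 and 0.47 under DMSO and at -0.43 and -0.41 under paclitaxel, and all 4 were called. With paclitaxel Ptgs2 and Pla2g4a differed in direction in EV-proficient cells (-0.65 and 0.24) and fell in EV-deficient cells (-1.72 and -0.64). Of the RNAs named for the strand opposite Ptgs2, 2 are given here. Ptgs2os had means of 10.7, 14.4, 8.64 and 7.70 CPM in EV-proficient DMSO, EV-deficient DMSO, EV-proficient paclitaxel and EV-deficient paclitaxel. It fell with paclitaxel in EV-deficient cells (-0.90 ± 0.14, edgeR adjusted p = 9e-06), and its -0.31 ± 0.14 in EV-proficient cells was not called by edgeR (adjusted p = 0.074), while DESeq2 called it (-0.33, adjusted p = 0.047), as did edgeR in a fit to those groups alone and without EV-proficient paclitaxel replicate 1 (-0.42). Ptgs2os2 had means of 8.64, 3.59, 2.55 and 8.25 CPM in the same order. It fell in EV-proficient cells (-1.74 ± 0.16, edgeR adjusted p = 6.4e-09) and rose in EV-deficient cells (1.20 ± 0.15, edgeR adjusted p = 5.5e-07), and the same 2 groups were high as in the dngfr row, EV-proficient DMSO and EV-deficient paclitaxel.

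The rest of the pathway was described from 6 lists, of which the other receptors are given above. Changes named from them were called by edgeR's quasi-likelihood test at an adjusted p under 0.05 unless a sentence says otherwise, and the first value of a pair is for EV-proficient cells. For every list, the counts stand beside a background in which paclitaxel called 58.2% and 62.9% of all tested genes (medians 0.05 and 0.07). The EV label called 23% of all tested genes under DMSO and 37.8% under paclitaxel. Of 13 other prostanoid synthases, carriers and reductases, 12 were tested: paclitaxel called 6 higher and 2 lower in EV-proficient cells and 8 higher and 2 lower in EV-deficient cells, with median log2 fold changes of 0.71 and 0.44 beside 0.05 and 0.07 over all genes. EV-deficient against EV-proficient called 4 higher and 3 lower under DMSO and 1 higher and 3 lower under paclitaxel. The 7 calls under DMSO fell to 4 without EV-proficient DMSO replicate 2 or 3 or EV-deficient DMSO replicate 2 or 3. Slco2a1, the carrier that takes prostaglandins back into cells, had means of 177, 315, 302 and 151 CPM in EV-proficient DMSO, EV-deficient DMSO, EV-proficient paclitaxel and EV-deficient paclitaxel. It rose with paclitaxel in EV-proficient cells (0.77 ± 0.06, edgeR adjusted p = 1.5e-10) and fell in EV-deficient cells (-1.06 ± 0.06, edgeR adjusted p = 7.1e-13). Abcc4, an efflux pump that exports prostaglandin E2, did the reverse. Its means were 306, 161, 124 and 194.5 CPM in that order, and it fell in EV-proficient cells (-1.30 ± 0.08, edgeR adjusted p = 9.9e-12) and rose in EV-deficient cells (0.27 ± 0.08, edgeR adjusted p = 0.0038). The paclitaxel effects on both carriers depended on the pairing of labels. Against the DMSO libraries of the other EV label, Slco2a1 stood at -0.06 ± 0.05 in EV-proficient paclitaxel, which was not called (edgeR adjusted p = 0.39), and at -0.23 ± 0.06 in EV-deficient paclitaxel (edgeR adjusted p = 0.0011), a call lost under upper-quartile scaling (-0.08, edgeR adjusted p = 0.24). Abcc4 was lower in both, at -0.38 ± 0.08 and -0.65 ± 0.08. The carbonyl reductases Cbr1 and Cbr3, which can reduce prostaglandin E2, rose under both labels: Cbr1 by 1.07 ± 0.09 and 0.32 ± 0.08, and Cbr3 by 1.16 ± 0.19 and 0.55 ± 0.18.

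**Figure D5:**
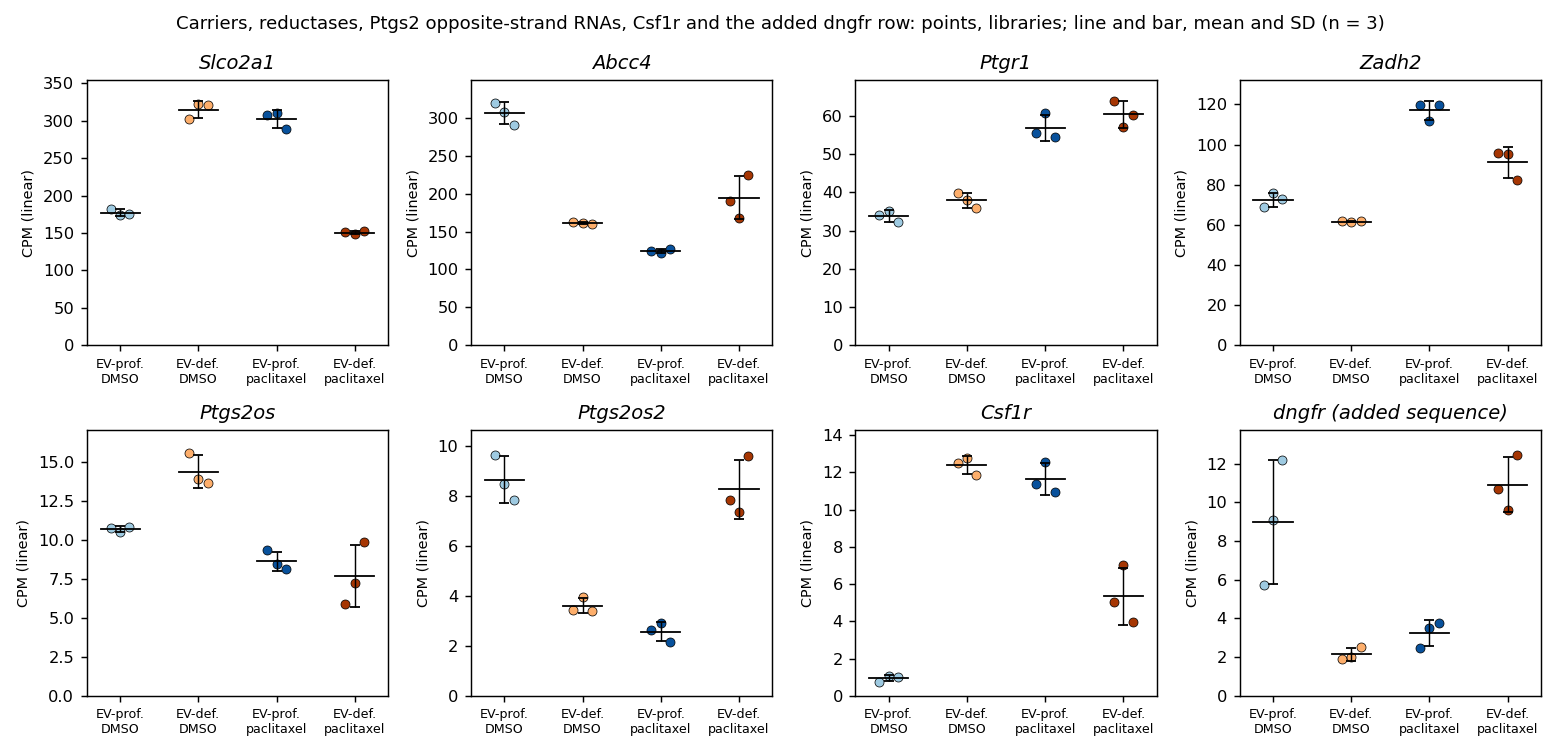
Level in CPM (linear vertical axes starting at 0) in each library. The panels show the carriers Slco2a1 and Abcc4, the reductases Ptgr1 and Zadh2, the RNAs opposite Ptgs2, Csf1r and the added dngfr row. Cbr1 and Cbr3 are not drawn. Points are libraries, lines are means and bars are 1 SD over 3 libraries per group. Slco2a1 and Csf1r are highest in EV-deficient DMSO and EV-proficient paclitaxel, where Abcc4, Ptgs2os2 and dngfr are lowest.

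Upstream of the cyclooxygenases, 17 of 28 other phospholipases and arachidonate-handling genes were tested. Paclitaxel called 5 higher and 7 lower in EV-proficient cells and 5 higher and 6 lower in EV-deficient cells, with medians of -0.21 and 0.10. EV-deficient against EV-proficient called 2 higher and 6 lower under DMSO and 6 higher and 2 lower under paclitaxel. The 8 calls under DMSO fell to 5 without EV-deficient DMSO replicate 3, and the 8 under paclitaxel fell to 5 with no low-count filter. Pla2g7, a secreted hydrolase of platelet-activating factor, rose from means of 1.71 and 1.69 CPM under DMSO to 5.16 and 9.09 CPM with paclitaxel in EV-proficient and EV-deficient cells (1.60 ± 0.17 and 2.42 ± 0.17). Pla2g4c, a paralogue of Pla2g4a, fell under both labels (-2.07 ± 0.33 and -1.17 ± 0.30). Daglb, a lipase that makes an endocannabinoid precursor of arachidonic acid, fell by 1.22 ± 0.09 in EV-proficient and 0.58 ± 0.09 in EV-deficient cells. Lpcat3, which puts arachidonic acid back into phospholipids, also fell (-0.87 ± 0.07 and -0.44 ± 0.06).

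The lipoxygenases compete for the same fatty acid and make leukotrienes and hydroxy acids. Of 17 lipoxygenase and leukotriene genes, 10 were tested: 4 rose with paclitaxel in EV-proficient cells, and 4 rose and 1 fell in EV-deficient cells, with medians of 1.04 and -0.07. With a filter of 1 CPM in 3 libraries, 3 were called in EV-deficient cells. Alox12, the 12-lipoxygenase, had means of 0.581 and 0.470 CPM in EV-proficient and EV-deficient DMSO and 5.24 and 4.24 CPM in the corresponding paclitaxel groups. It rose by 3.17 ± 0.25 and 3.16 ± 0.25 (edgeR adjusted p = 5.8e-10 and 3.6e-10), and its interaction was -0.01 ± 0.39. Aloxe3, an epidermal lipoxygenase, fell in EV-deficient cells (-0.81 ± 0.17, edgeR adjusted p = 3e-04). In EV-proficient cells its -0.41 ± 0.18 was just outside the threshold with edgeR, and DESeq2 called it (adjusted p = 0.03). Lta4h, the leukotriene A4 hydrolase, rose in EV-proficient cells (0.26 ± 0.06, edgeR adjusted p = 0.00045).

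All 21 genes listed as textbook regulators of Ptgs2 transcription or mRNA were tested. Paclitaxel called 8 higher and 6 lower in EV-proficient cells and 12 higher and 5 lower in EV-deficient cells, with medians of 0.16 and 0.38. EV-deficient against EV-proficient called 5 higher and 5 lower under DMSO and 5 higher and 5 lower under paclitaxel. The 10 calls under DMSO fell to 6 without EV-proficient DMSO replicate 2, EV-deficient DMSO replicate 2 or EV-deficient DMSO replicate 3. Both C/EBP transcription factors named by size of change rose while Ptgs2 fell. Cebpb had means of 2.09 and 3.57 CPM in EV-proficient and EV-deficient DMSO and 7.11 and 7.06 CPM with paclitaxel (1.76 ± 0.18 and 0.98 ± 0.17). Cebpd rose from 4.28 and 3.02 CPM to 11.9 and 16.2 CPM (1.48 ± 0.19 and 2.43 ± 0.19). Fos, a subunit of AP-1, rose by 1.60 ± 0.18 and 1.16 ± 0.17. Its relative Fosl1 fell in EV-deficient cells (-1.53 ± 0.13, edgeR adjusted p = 2.1e-09) and was not called in EV-proficient cells (-0.07 ± 0.13), with an interaction of -1.46 ± 0.19 (edgeR adjusted p = 2.1e-06).

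The 13 genes listed as cAMP-responsive, downstream of EP2 and EP4, were all tested. Paclitaxel called 7 higher and 2 lower in EV-proficient cells and 4 higher and 3 lower in EV-deficient cells, with medians of 0.24 and 0.01. Over all tested genes, EV-deficient against EV-proficient called 23% under DMSO (12.4% higher) and 37.8% under paclitaxel (21.8% lower). Of the list it called 8 higher and 1 lower under DMSO and 1 higher and 4 lower under paclitaxel. The total under DMSO fell to 5 genes without EV-proficient DMSO replicate 3, EV-deficient DMSO replicate 1 or EV-deficient DMSO replicate 3, and to 4 genes without EV-proficient DMSO replicate 2. Ppargc1a, a transcriptional coactivator, rose by 2.61 ± 0.28 and 1.97 ± 0.26. Areg, an EGF receptor ligand, fell from means of 38.6 and 50.2 CPM in EV-proficient and EV-deficient DMSO to 13.8 and 9.24 CPM (-1.48 ± 0.13 and -2.43 ± 0.13). The cAMP phosphodiesterase Pde4b fell in EV-deficient cells (-1.21 ± 0.09), and Pde4d rose in EV-proficient cells (1.18 ± 0.15). In EV-deficient cells Pde4d was not called with paclitaxel in the main fit. It was called higher there under upper-quartile scaling (0.47), under a filter of 1 CPM in 3 libraries (0.35) and without EV-deficient paclitaxel replicate 3 (0.44). The members of this list thus moved in both directions.

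The genes nearest in pattern were named for the 4 members with the widest range of group means among tested members with a mean of at least 1 CPM. Likeness was Pearson's r of log2 CPM over the 12 libraries, a description with no test. For Ptgs1 they were Sorl1 (r = 0.996), Tex15 (0.992) and Ppp1r12b (0.992). For Ptgs2 they were Gtf3c4 (0.994), Inhba (0.991) and Arf2 (0.989), of which Inhba, a subunit of activin A, had means of 294.5, 362, 204 and 163 CPM in EV-proficient DMSO, EV-deficient DMSO, EV-proficient paclitaxel and EV-deficient paclitaxel. For Ptges they were Pink1 (0.996), Ctdsp2 (0.995) and Hcfc1r1 (0.995), and for Ptger4 Mrpl11 (0.992), Rnf4 (0.991) and Nol12 (0.988). These were the highest of about 9940 candidate genes each, and the 12 libraries share 4 groups, so many genes with the same order of groups reach a high r.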

How the data were processed

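Polyadenylated RNA of 12 MOC2 samples, 3 libraries in each of 4 groups, was prepared with a stranded kit, per the labels. The file the authors deposited holds unnormalized read counts by gene. STAR 2.5.0a and GRCm38 are named in the submitters' processing notes; the counting program, annotation release and use of strand are not given in the sources used here. Columns were matched to samples by the labels' descriptions, and groups come from titles and treatments. The 2 added rows (gfp and dngfr) were left out of library sizes and tests.

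Genes were kept by filterByExpr (minimum count 10): 18108 of 35104 genes with any count. Scaling was by the trimmed mean of M values (factors 0.890 to 1.15). One edgeR 4.0.16 quasi-likelihood model in R 4.3.3 gave each of the 4 groups a mean, with no covariate (8 residual degrees of freedom), and p-values were adjusted by Benjamini-Hochberg over all tested genes (threshold 0.05). Fold changes are log2, with standard errors and 95% intervals from the F statistic. The planned comparisons, 5 in all, set paclitaxel beside DMSO for either EV label, set the EV labels beside each other for either treatment, and took the interaction; 3 comparisons were added after the data were seen. A floor of 3 counts corresponded to 0.0477 to 0.129 CPM per library.

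The members and lists were chosen with earlier results of these data known. All 10 members are named; from each list at most 4 genes with the largest change in any of the 4 simple comparisons, past the threshold there and with a mean of at least 1 CPM; and for the 4 members with the widest range, the 3 nearest genes in pattern (mean of at least 5 CPM, log2 CPM with a prior count of 2). Exon lengths and positions come from GENCODE M21 (GRCm38), and promoter windows from RefSeq (GRCm38.p6). The alternatives tried were upper-quartile or median-of-ratios scaling, a filter of 1 CPM in 3 libraries or none, DESeq2 1.42.0, limma-voom (limma 3.58.1), a fit to the compared groups alone, a block for the replicate number, and the fits without 1 library each. One marker gene of the lists is not reported here. The fits were first tested on simulated counts.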

Additional observations from a re-analysis of the deposited data

Results flagged for a closer look

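In 4 of the 8 tested prostaglandin genes the paclitaxel effect differed between the EV labels by the test of the interaction itself (edgeR's quasi-likelihood test, Benjamini-Hochberg adjusted). The interaction was -3.80 for Ptgs1 (adjusted p = 1.3e-10). Its EV-proficient paclitaxel libraries all lay above the EV-proficient DMSO libraries, and its EV-deficient paclitaxel libraries all lay below the EV-deficient DMSO libraries. The call of that fall was lost under upper-quartile scaling (-0.36, edgeR adjusted p = 0.061). The interaction was -1.07 for Ptgs2 (adjusted p = 1.4e-07) and -0.46 for Ptges (adjusted p = 0.0046), whose directions were shared by both labels. It was -0.88 for Pla2g4a (adjusted p = 1.5e-07), which changed sign between the labels. These interactions rest on the EV labels as deposited, which the dngfr row crossed, and whether labels were exchanged was not tested. Against the DMSO libraries of the other EV label, the paclitaxel effects in EV-proficient and EV-deficient cells were 0.82 and 1.89 for Ptgs1, -1.29 and -1.08 for Ptgs2, 1.18 and 1.00 for Ptges, and -0.23 and -0.17 for Pla2g4a. With that pairing Ptgs1 and Pla2g4a each had effects of 1 sign, as Ptgs2 and Ptges already had with the labels as deposited. Both Pla2g4a values lost their calls under upper-quartile scaling (-0.14 and -0.01). The difference between the paired effects was not tested. An interaction was called for 40.7% of all tested genes.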

How the results depend on the processing

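Of 1190 recomputed values, 1168 kept their side of the threshold (counts: stayed within 1.5 times), with the same direction where called. Of values called in either fit 0 reversed, and changes of sign among values called in neither fit were not counted. The 22 others concern Ptges3, Pla2g4a, Ptgis, Ptgs1 in EV-deficient cells, and 1 count. Only 5 of the 8 members were called in EV-deficient paclitaxel against EV-proficient DMSO with a filter of 1 CPM in 3 libraries; Ptgis failed that filter, Ptges3 stood at -0.13 and Pla2g4a at -0.11. In that comparison Pla2g4a also lost its call under upper-quartile scaling (-0.01), with no low-count filter (-0.16) and without EV-proficient DMSO replicate 1 (-0.18) or 2 (-0.13). EV-proficient paclitaxel against EV-deficient DMSO lost Pla2g4a under upper-quartile scaling (-0.14, edgeR adjusted p = 0.059). The cause was not tested.

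Upper-quartile scaling moved the median of all genes by 0.18 in the paclitaxel comparison of EV-deficient cells and by 0.12 in the interaction and the mean paclitaxel effect. The share of calls that were higher went from 51.5% to 63.4% in the first, from 42.4% to 58.2% for the EV label under paclitaxel, from 41.4% to 53.9% for the interaction, and from 53.1% to 64.3% for EV-deficient paclitaxel against EV-proficient DMSO. Leaving out 1 library gave 7 to 8 and 6 to 8 called members for paclitaxel in EV-proficient and EV-deficient cells, 3 to 3 and 4 to 4 for the EV label, and 4 to 4 for the interaction. For 23 named genes outside the 10 members, 2651 of 2760 values stayed the same by the rule above. Of the counts of called list genes, 411 of 450 stayed within 1.5 times, and 0 called values reversed. These were recomputed under the same alternatives, a choice made after the data were seen.

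With the replicate number as a block the called members were 7, 8, 3, 4 and 4 in the 5 planned comparisons, the same numbers as without it, and the genes called were 10520, 11363, 4258, 6858 and 7386. Same-number libraries had correlations of their deviations between -0.0812 and 0.097, and 8 of 18 pairs correlated best within their own number, so the numbers were not taken to pair the samples. Depth limits Ptgis, Hpgd and Ptger2, which had at most 24 counts in a library.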
